A study of Mus musculus with 6 samples.

Results

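The genes described here are 10 that serve the work and identity of Bergmann glia and astrocytes, followed in RNA pulled down from mouse cerebellum. They are Slc1a3, Slc1a2 and Glul for glutamate, Slc4a4 and Aqp4 for ions and water, and Hopx, Gdf10, Timp4, Aldh1l1 and Ndrg2, which mark or occupy these cells. They were chosen by name as rows of the gene count table and are 10 of its 23420 rows. All 10 passed the filter on low counts and are among the 16067 genes tested. Bergmann glia are the radial astrocytes of the cerebellar cortex, whose processes ensheathe the dendrites and synapses of Purkinje cells. They take up synaptic glutamate together with sodium, convert it to glutamine for return to neurons, and buffer potassium, bicarbonate and water around the synapse. Injury of neighbouring neurons is known to bring these glia into a reactive state, of which the filament protein GFAP is the usual marker.

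Each library held ribosome-bound RNA of 1 cerebellum of a C57BL/6 mouse at 4 weeks of age, with 3 libraries in each group. The conditional knockout animals (cKO) carried the ribosome tag transgene Pcp2-BacTRAP, the recombinase transgene Pcp2-Cre, and Rbm17 as a floxed and a null allele (f/-). The control animals carried the tag transgene and Rbm17 as a floxed and a wild-type allele (f/+), with no Cre. Rbm17 encodes a splicing factor, and the title of the series names cryptic splicing after its loss, so the comparison asks what differs in RNA level and junction use. Cre and the null allele were present in cKO alone, so the effect of either cannot be told apart from that of deletion. The tag and the Cre are driven by Pcp2, a gene of Purkinje cells, so neither was aimed at glia. The null allele is part of the cKO genotype and is not restricted to Purkinje cells by that driver. The cells from which the reads of the 10 genes came were not measured. In such pull-down libraries fewer cells of a type, less RNA per cell and a different share of RNA from untagged cells cannot be told apart.

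The libraries held between 140110897 and 160571518 gene counts, and the 10 genes had between 989 and 93927 counts each. Levels are given as counts-per-million (CPM) on TMM-scaled library sizes, and n = 3 libraries in each group throughout. Rbm17 stood at 25.9 ± 0.36 CPM in cKO and 41.6 ± 0.73 CPM in control (SD; log2 fold change -0.69, SE 0.09), with groups that did not overlap. Purkinje cell markers summed to 17501 to 20076 CPM in cKO and 28937 to 39129 CPM in control, and 12 of the 22 tested fell. Microglial markers summed to 147 to 245 CPM in cKO and 75.9 to 109 CPM in control, and 11 of 20 rose. Replicate 1 of cKO stood below cKO replicates 2 and 3 in summed astrocyte and Bergmann glia, oligodendrocyte, granule cell, interneuron and endothelial markers. It stood above them in the microglial and reactive astrocyte sums.

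Of the 10 genes 2 fell in cKO and 0 rose, at an adjusted p under 0.05 in edgeR's quasi-likelihood test, whereas 3.85% of all tested genes fell, 4.03% rose and 7.87% changed in either direction. Those that fell were Slc4a4, the sodium bicarbonate cotransporter gene, by 0.36 on the log2 scale, and Hopx, the homeodomain-only protein gene, by 0.32. At an unadjusted p under 0.05 the count was 4 lower and 0 higher, against 10.6% lower and 11.5% higher of all tested genes. DESeq2 called 3 of the 10 lower and 0 higher, against 6.36% lower and 6.35% higher of all genes. The fold change was below 0 in 9 of the 10 genes, against 49.2% of all tested genes, with a median log2 fold change of -0.30 over the 10 and 0.01 over all genes tested (quartiles -0.19 and 0.24). In 4 of the 10, Slc1a3, Slc1a2, Slc4a4 and Hopx, every cKO library lay below every control library, against 13.4% of all tested genes, and 28.4% of all tested genes had groups that did not overlap in either direction. Summed over the 10 genes, the level was 2050, 2437 and 2505 CPM in the cKO libraries and 2492, 2683 and 3052 CPM in the control libraries, and these sums overlapped. Without cKO replicate 1 the number called was 0 and the median over the 10 genes was -0.24. Leaving out any other single library also gave 0, apart from control replicate 1, which gave 1. The number of all genes called was 1265 with 6 libraries and 530 to 1037 with 1 left out.

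**Figure D1:**
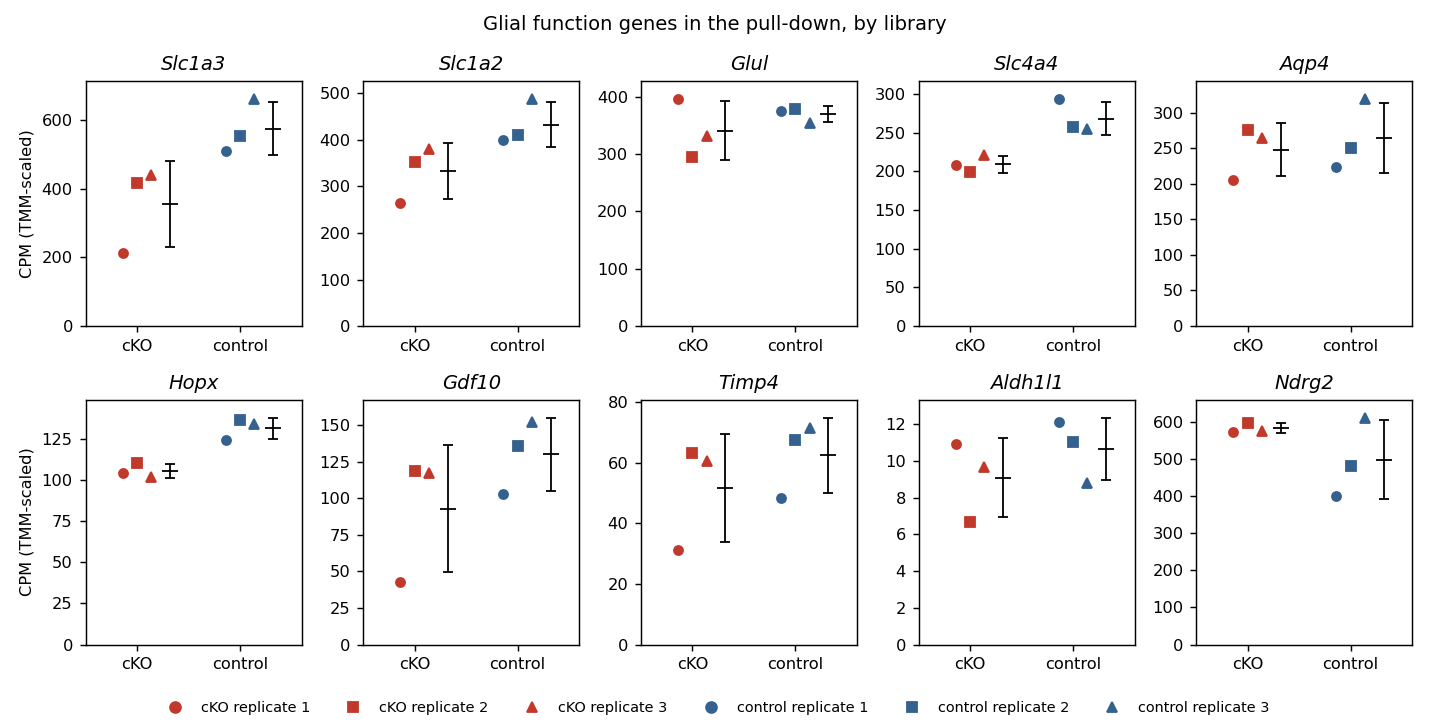
Level of each of the 10 genes in CPM on TMM-scaled library sizes (vertical axis, from 0), with cKO left of control; points are single libraries and the bar beside them is the mean ± SD of 3. Slc1a3, Slc1a2, Slc4a4 and Hopx have cKO libraries that all lie below the control libraries, and cKO replicate 1 is the lowest point for Slc1a3, Slc1a2, Aqp4, Gdf10 and Timp4.

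Compared per length of exon, the 10 genes kept nearly the same order in both groups. On the RPKM scale, which divides CPM by the exon length in kilobases, Ndrg2 was highest, at 172 ± 4.0 in cKO and 147 ± 31 in control. Glul followed at 103 ± 15 in cKO and 111 ± 4.2 in control, and Hopx at 69.7 ± 2.8 in cKO and 86.7 ± 4.3 in control. Each of these first neighbours was separated in all libraries of its group. Slc1a3 came next at 41.7 ± 15 RPKM in cKO and 67.3 ± 9.0 in control, then Aqp4 at 39.8 ± 6.1 in cKO and 42.4 ± 7.9 in control, and Slc1a2 at 25.4 ± 4.6 in cKO and 33.0 ± 3.6 in control. The libraries of Slc1a3 and Aqp4 overlapped in cKO and were separate in control, while those of Aqp4 and Slc1a2 were separate in cKO and overlapped in control. Below them Slc4a4 had 19.4 ± 1.0 RPKM in cKO and 24.8 ± 2.0 in control, and Gdf10 17.8 ± 8.3 in cKO and 24.96 ± 4.8 in control, with overlap between these neighbours in both groups, and between Slc1a2 and Slc4a4 and between Gdf10 and Timp4 in cKO. Timp4 had 8.78 ± 3.0 RPKM in cKO and 10.6 ± 2.1 in control, and Aldh1l1 was lowest at 2.02 ± 0.48 in cKO and 2.36 ± 0.38 in control. For scale, the Purkinje gene Pcp2 had 218 ± 40 RPKM in cKO and 575 ± 23 in control, and the granule cell gene Gabra6 144 ± 27 in cKO and 157 ± 22 in control. The level of Aldh1l1, a marker of astrocytes across the brain, was thus under that of each other member in both groups.

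Glutamate uptake is carried by Slc1a3, which encodes the transporter GLAST (EAAT1), the main glutamate transporter of Bergmann glia. Slc1a3 (chr15:8634124-8710764, minus strand, mm10) had 212, 416 and 439.8 CPM in the cKO libraries, against 510.4, 553 and 659.9 CPM in the control libraries. The groups did not overlap, and cKO replicate 1 lay far under the other cKO libraries. Its log2 fold change was -0.69 (SE 0.23, edgeR adjusted p = 0.0998), the furthest from 0 of the 10 genes, and it missed the threshold. Without cKO replicate 1 it was -0.43 (edgeR adjusted p = 0.0860). Reads that span annotated junctions of Slc1a3 gave the same order of groups, at 120.1, 235 and 259 CPM of spliced reads in cKO and 291, 309.8 and 359 CPM in control (log2 fold change -0.64, SE 0.23, edgeR adjusted p = 0.162). Along the gene, as CPM of the library's junction reads without TMM scaling, all 9 introns had a lower mean in cKO. In 6 of them every cKO library lay below every control library.

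Slc1a2 encodes GLT1 (EAAT2), the transporter that dominates in forebrain astrocytes and is present beside GLAST in the cerebellum. Slc1a2 (chr2:102658659-102790784, plus strand) had 265, 353 and 381 CPM in the cKO libraries, against 399.9, 411 and 488 CPM in the control libraries. The groups did not overlap, with cKO replicate 1 again the lowest library. It differed by -0.38 on the log2 scale (SE 0.14, edgeR adjusted p = 0.133), and DESeq2 gave an adjusted p of 0.0435. Without cKO replicate 1 the log2 fold change was -0.24. Its spliced reads overlapped between groups, at 56.0 to 92.0 CPM in cKO and 85.4 to 96.9 CPM in control.

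Glul encodes glutamine synthetase, the enzyme that turns glutamate taken up by astrocytes into glutamine. Glul (chr1:153899944-153909723, plus strand) had 396, 296 and 332 CPM in the cKO libraries, against 376, 379.5 and 354 CPM in the control libraries. The groups overlapped, and here cKO replicate 1 was the highest of the 6 libraries, the reverse of its place in both transporter genes. The log2 fold change was -0.12 (SE 0.11, edgeR adjusted p = 0.610), and -0.24 without cKO replicate 1. Among 17 other genes of the glutamate and glutamine cycle, which include neuronal enzymes and transporters, edgeR called 0 and DESeq2 called 1, as lower (2 lower and 0 higher at an unadjusted p under 0.05). All 17 had a log2 fold change below 0, with a median of -0.13. Without cKO replicate 1 edgeR called 1 of them lower, the glutamate dehydrogenase gene Glud1 (adjusted p = 0.0368), named here after its value was seen. The aspartate aminotransferase gene Got1 had a log2 fold change of -0.02 (SE 0.12), and the GABA-synthesising enzyme gene Gad1, which Purkinje cells express, one of -0.17 (SE 0.15).

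Slc4a4 encodes NBCe1, the electrogenic sodium bicarbonate cotransporter with which astrocytes regulate pH inside the cell and around it. Slc4a4 (chr5:88886818-89239653, plus strand) had 208, 199.7 and 221 CPM in the cKO libraries, against 294, 257 and 254 CPM in the control libraries. The groups did not overlap, and the cKO libraries lay close together, cKO replicate 1 included. The log2 fold change was -0.36 (SE 0.09, edgeR adjusted p = 0.0421), and it was -0.35 without cKO replicate 1. None of the 6 fits without a library kept the call, and their edgeR adjusted p ran from 0.0581 to 0.137. In spliced reads the level was 223, 213 and 253 CPM in cKO and 315, 275 and 265 CPM in control, again without overlap (log2 fold change -0.31, SE 0.10, edgeR adjusted p = 0.129).

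RefSeq gives Slc4a4 an upstream and a downstream start, which lead to proteins with different first residues, and both are shown because the count over the whole gene does not separate them. Each window runs from 250 bases before to 50 bases after the start on the plus strand of GRCm38.p6, in lower case, with the letters CCAAT or their reverse complement ATTGG in capitals. The upstream window is chr5:88887010-88887309 and the downstream window chr5:89027716-89028015.
Slc4a4 upstream start: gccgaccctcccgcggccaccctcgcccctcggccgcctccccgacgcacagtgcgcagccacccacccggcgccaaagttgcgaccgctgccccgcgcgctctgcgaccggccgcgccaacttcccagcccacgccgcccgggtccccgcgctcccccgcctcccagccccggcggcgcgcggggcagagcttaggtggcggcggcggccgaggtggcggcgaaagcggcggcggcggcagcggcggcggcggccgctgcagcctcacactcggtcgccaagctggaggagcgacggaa
Slc4a4 downstream start: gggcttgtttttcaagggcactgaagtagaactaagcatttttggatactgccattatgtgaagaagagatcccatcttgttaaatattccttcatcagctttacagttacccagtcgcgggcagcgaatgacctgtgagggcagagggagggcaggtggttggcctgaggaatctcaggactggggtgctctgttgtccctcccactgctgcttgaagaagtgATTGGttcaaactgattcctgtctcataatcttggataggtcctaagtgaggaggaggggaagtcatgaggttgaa
The upstream window holds no CCAAT on either strand and has a GC content of 80.0%, while the downstream window holds 1 and has a GC content of 48.3%. Reads spliced from the upstream exons into the exon at chr5:89028293-89028428, which lies just past the downstream start, numbered 93.0 ± 10 per 100 reads leaving that exon in cKO, and 88.9 ± 3.9 in control. These ratios overlapped between groups, and a difference between the groups was not tested. In cKO replicate 1 the ratio was 104.6, so it does not measure a share of reads.

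Aqp4 encodes the water channel aquaporin 4 of astrocyte endfeet. Aqp4 (chr18:15389496-15410982, minus strand) had 205, 276 and 264 CPM in the cKO libraries, against 224, 250.2 and 319 CPM in the control libraries. The groups overlapped, with the lowest value in cKO replicate 1 and the highest in control replicate 3. A log2 fold change of -0.09 was fitted (SE 0.15, edgeR adjusted p = 0.786), and it turned to 0.029 without cKO replicate 1 and to 0.047 without control replicate 3. Among 22 other genes of water, potassium and acid-base handling, 1 fell and 0 rose in edgeR (5 lower and 1 higher at an unadjusted p under 0.05), with a median log2 fold change of -0.14. The gene that fell was Dmd, which encodes dystrophin, a protein that anchors AQP4 at endfeet and is also present in Purkinje cells. Dmd stood at 113, 106 and 118 CPM in the cKO libraries and 309.9, 242 and 216 CPM in the control libraries (log2 fold change -1.19, SE 0.13, edgeR adjusted p = 6.91e-04). Purkinje cell markers fell in the same libraries, and their part in the value of Dmd was not tested.

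Hopx encodes a small homeodomain protein without DNA binding of its own, which marks Bergmann glia in the adult mouse cerebellum. Hopx (chr5:77086988-77115121, minus strand) had 104, 110.5 and 102 CPM in the cKO libraries, against 124, 136 and 134 CPM in the control libraries. The groups did not overlap, and the spread within each was the smallest relative to its level among the genes that lay lower in every cKO library. The log2 fold change was -0.32 (SE 0.09, edgeR adjusted p = 0.0497), just inside the threshold, and it was -0.31 without cKO replicate 1. Leaving out control replicate 1 kept the call (edgeR adjusted p = 0.0343), and leaving out any other library lost it. Upper quartile scaling also lost it (edgeR adjusted p = 0.0625), as it did for Slc4a4 (edgeR adjusted p = 0.05005), and so did the fit with no count filter (edgeR adjusted p = 0.0544). In spliced reads it had 39.8, 48.8 and 42.8 CPM in cKO and 49.6, 55.0 and 53.4 CPM in control (log2 fold change -0.27, edgeR adjusted p = 0.249).

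Hopx also has an upstream and a downstream start in RefSeq, shown as for Slc4a4 because these are the only other promoters of a gene that fell. They lie on the minus strand of GRCm38.p6, at chr5:77115074-77115373 for the upstream and chr5:77095218-77095517 for the downstream start, and capitals again mark CCAAT or ATTGG.
Hopx upstream start: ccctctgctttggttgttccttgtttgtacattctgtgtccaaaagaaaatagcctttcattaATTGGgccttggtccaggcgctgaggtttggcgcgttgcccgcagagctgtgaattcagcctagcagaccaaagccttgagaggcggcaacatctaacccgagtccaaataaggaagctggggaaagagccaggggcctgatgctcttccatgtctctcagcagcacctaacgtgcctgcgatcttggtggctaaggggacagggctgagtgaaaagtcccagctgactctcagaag
Hopx downstream start: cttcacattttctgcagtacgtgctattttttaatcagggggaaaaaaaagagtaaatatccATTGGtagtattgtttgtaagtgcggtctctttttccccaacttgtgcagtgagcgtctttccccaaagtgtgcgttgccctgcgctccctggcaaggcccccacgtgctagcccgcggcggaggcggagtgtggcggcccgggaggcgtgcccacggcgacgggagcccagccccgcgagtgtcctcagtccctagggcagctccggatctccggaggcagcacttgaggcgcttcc
Each Hopx window holds 1 match. Over the members, RefSeq gave 13 such windows for 9 genes and none was used for Aqp4, and 6 of the 13 held CCAAT on either strand, against 37.4% of all 32851 windows of the same length. The letters TATAAA stood in 2 of the 13 and in 13.6% of all windows. Splicing from the upstream first exon of Hopx made up 7.02%, 8.40% and 6.63% of the reads into its second exon in cKO, against 2.31%, 7.79% and 4.67% in control. The downstream start thus supplied most reads in every library, and the groups overlapped.

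Gdf10 encodes a secreted factor of the TGF-beta and BMP family known as a marker of Bergmann glia in the mouse cerebellum. Gdf10 (chr14:33923587-33937983, plus strand) had 42.9, 118 and 117 CPM in the cKO libraries, against 103, 136 and 152 CPM in the control libraries. The groups overlapped, and cKO replicate 1 stood far under every other library. The log2 fold change was -0.49 (SE 0.31, edgeR adjusted p = 0.413), and -0.14 without cKO replicate 1. Among 20 tested receptor, ligand and SMAD genes of that family, 1 rose and 0 fell in edgeR. It was Tgfbr2, a TGF-beta receptor gene, with 8.42, 11.4 and 8.96 CPM in cKO and 3.60, 4.87 and 5.36 CPM in control (log2 fold change 1.06, SE 0.20, edgeR adjusted p = 0.0106). Tgfbr2 is also expressed by microglia, whose markers rose in the same libraries, and their part in its value was not tested.

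Timp4 encodes an inhibitor of matrix metalloproteinases. Timp4 (chr6:115241892-115252205, minus strand) lies within an intron of Syn2 on the opposite strand, and whether the counts separate strands is not given in the sources used here. It had 31.3, 63.3 and 60.7 CPM in the cKO libraries, against 48.5, 67.7 and 71.6 CPM in the control libraries. The groups overlapped, with replicate 1 the lowest library within each. Its log2 fold change was -0.27 (SE 0.24, edgeR adjusted p = 0.566), and -0.01 without cKO replicate 1. Of 15 other TIMP and metalloproteinase genes, 1 rose and 0 fell in edgeR, against 1 higher and 2 lower both in DESeq2 and at an unadjusted p under 0.05. The gene that rose was Adamts1, a secreted protease gene (25.5, 19.2 and 21.3 CPM in cKO; 14.3, 13.4 and 15.6 CPM in control; log2 fold change 0.61, SE 0.13, edgeR adjusted p = 0.0217). Its call held in 3 of the 6 fits with 1 library left out, and was lost without cKO replicate 1 (edgeR adjusted p = 0.0745).

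Aldh1l1 encodes cytosolic 10-formyltetrahydrofolate dehydrogenase, an enzyme of folate metabolism. Aldh1l1 (chr6:90486427-90600203, plus strand) had 10.9, 6.71 and 9.67 CPM in the cKO libraries, against 12.1, 11.1 and 8.79 CPM in the control libraries. The groups overlapped (log2 fold change -0.23, SE 0.20, edgeR adjusted p = 0.570). The fold change was -0.38 without cKO replicate 1 and -0.050 without cKO replicate 2, the lowest library. Its spliced reads were uneven along the gene in both groups. The mean over introns 10 to 22 was 3.85, 1.43 and 2.32 times that over introns 1 to 9 in cKO, against 1.63, 2.80 and 2.11 times in control, and the groups overlapped. Of 15 tested folate enzyme genes edgeR and DESeq2 each called 0, none had an unadjusted p under 0.05, and the median was 0.07 on the log2 scale. Among them the log2 fold change was 0.03 (SE 0.12) for Shmt2, which acts in serine metabolism, and 0.07 (SE 0.14) for the purine synthesis gene Gart.

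Ndrg2 encodes a cytoplasmic protein enriched in astrocytes and was the only one of the 10 genes with a fold change above 0. Ndrg2 (chr14:51905271-51914158, minus strand) had 574, 598 and 576 CPM in the cKO libraries, against 401, 481 and 611 CPM in the control libraries. The cKO libraries lay close together, inside the wide range of control. Its log2 fold change was 0.23 (SE 0.14, edgeR adjusted p = 0.372), and it was 0.092 without control replicate 1 and 0.38 without control replicate 3 (edgeR adjusted p = 0.0755). In spliced reads the log2 fold change was 0.24 (SE 0.14). Per intron, as CPM of the library's junction reads without TMM scaling, every cKO library lay above every control library in 3 of 15 introns. That count was not computed with TMM scaling, on which narrow separations can depend. The related gene Ndrg4 had a log2 fold change of -0.14 (SE 0.09) and Ndrg3 one of -0.06 (SE 0.09). Of the 3 other NDRG genes 0 were called by edgeR and 0 by DESeq2, and 0 had an unadjusted p under 0.05.

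**Figure D2:**
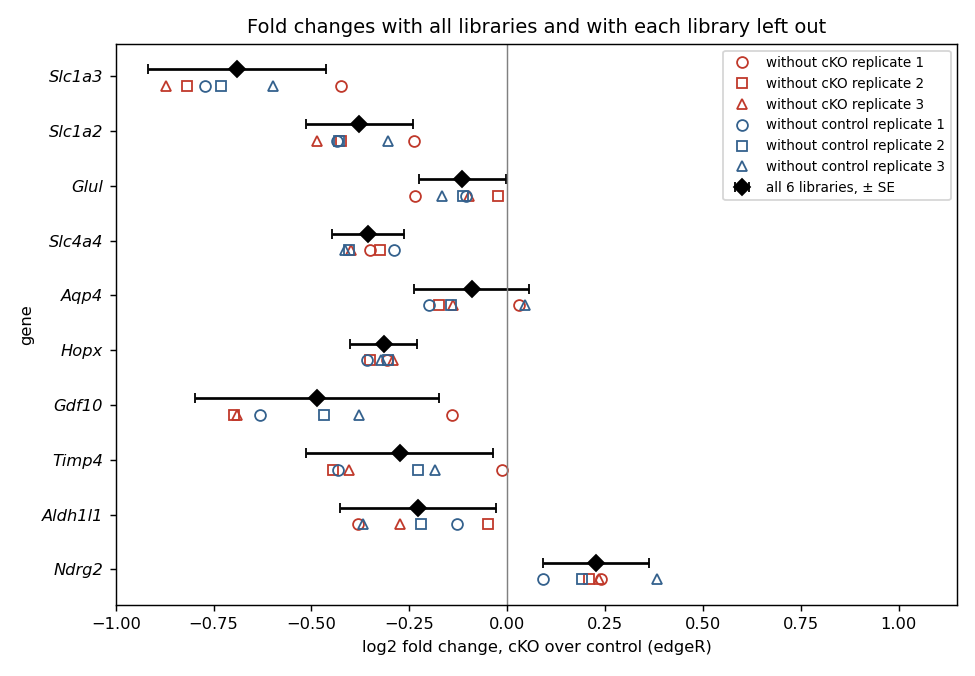
Log2 fold change of each gene, cKO over control, from edgeR (horizontal axis); black diamonds are the fit to all 6 libraries with bars of 1 SE, and open symbols are the fits that leave out 1 library. Leaving out cKO replicate 1 moves Slc1a3 to -0.43, Gdf10 to -0.14 and Timp4 to -0.01, while Slc4a4 and Hopx stay near their values.

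Of the 10 genes, 5 had their lowest level in cKO replicate 1 (Slc1a3, Slc1a2, Aqp4, Gdf10 and Timp4) and 1, Glul, its highest. The same library was the lowest for 26 of 40 other astrocyte and Bergmann glia genes. It was also the lowest for 11 of 22 Purkinje cell and 0 of 20 microglial markers. The share of all tested genes with their lowest level in it was not computed, so these counts are not read as particular to glia. Relative to the control mean, that longer list summed to -0.48, -0.22 and -0.18 on the log2 scale in the cKO libraries, and between -0.011 and 0.014 in the control libraries. In CPM its sums were 5368 to 6580 in cKO and 7413 to 7539 in control. Aldoc, a glycolytic gene that Purkinje cells also express, made up a large part of these sums. Without Aldoc, a choice made after the values were seen, the other 39 genes summed to 2883, 4041 and 3947 CPM in cKO and 3611, 4347 and 4885 CPM in control, and the groups overlapped. Of its 40 genes, 33 had a log2 fold change below 0 (median -0.20), but 2 fell and 0 rose in edgeR, against 10 lower and 0 higher in DESeq2. Tnc, the matrix protein gene tenascin C, had 3.18, 5.98 and 6.58 CPM in cKO and 13.9, 14.9 and 17.1 CPM in control (log2 fold change -1.55, SE 0.24, edgeR adjusted p = 0.00436), and its call held in all 6 fits that left out 1 library. Kcnj10, a gene of the inwardly rectifying potassium channel of glia, had 98.8, 138 and 140.2 CPM in cKO and 162 to 204 CPM in control (log2 fold change -0.59, SE 0.14, edgeR adjusted p = 0.0336), and it was called in 1 of those 6 fits, not in the one without cKO replicate 1 (edgeR adjusted p = 0.0709). Without that library 1 of the 40 fell and the median was -0.08.

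Of 32 tested genes of the reactive astrocyte state, 4 rose and 2 fell, with a median log2 fold change of 0.27, and their summed level was 597, 400.1 and 447 CPM in cKO and 355 to 363 CPM in control. The sum was higher in every cKO library, but without Gfap and Hspb1, left out after the values were seen, it was 340.3, 278 and 297 CPM in cKO and 317, 303 and 305 CPM in control, and the groups overlapped. Gfap rose to 171, 91.1 and 104 CPM in the cKO libraries, against 39.3, 46.7 and 47.1 CPM in the control libraries (log2 fold change 1.46, SE 0.21, edgeR adjusted p = 0.00240). Hspb1, a gene of a small heat shock protein, rose by 3.15 on the log2 scale (SE 0.31), and the chemokine gene Cxcl10 by 4.01 (SE 0.82) with at most 0.324 CPM in any control library. H2-D1, a class I histocompatibility gene, fell by 0.58 (SE 0.10). Hspb1, Cxcl10 and H2-D1 are also expressed by neurons, microglia or endothelium, so the list is not particular to astrocytes. For Gfap, cKO replicate 1 was the highest library, and it was the lowest for both glutamate transporter genes. Without it 2 of the 32 rose and 1 fell, and Gfap was still called (log2 fold change 1.14, edgeR adjusted p = 0.00116).

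**Figure D3:**
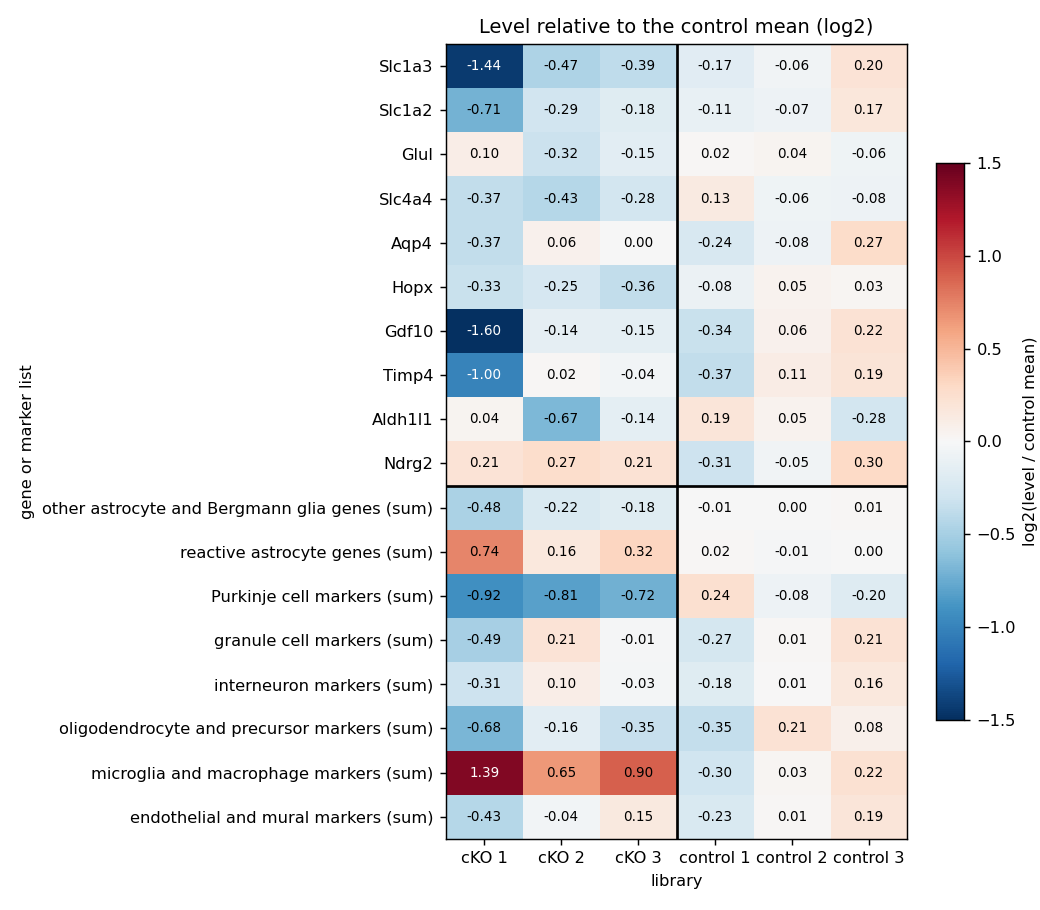
Each library's level relative to the control mean, as log2 (colour and printed value), for the 10 genes above the line and for summed lists below it, of other astrocyte and Bergmann glia genes, reactive astrocyte genes and markers of other cell types; the 3 cKO libraries are left of the 3 control libraries. In cKO replicate 1, Slc1a3 and Gdf10 stand at -1.44 and -1.60, and the microglial sum at 1.39.

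Most markers of the remaining cell types, apart from microglia, also had a log2 fold change below 0, against 49.2% of all tested genes. These were 21 of 22 Purkinje cell (median -0.49), 16 of 18 oligodendrocyte (-0.29) and 13 of 16 granule cell markers (-0.06). For interneuron markers the count was 11 of 14 (-0.17), for endothelial and mural 11 of 16 (-0.08) and for microglial 2 of 20 (1.16). A fold change below 0 was thus not particular to the 10 genes. Of the 22 Purkinje cell markers tested 12 fell and 0 rose, with Pcp2 at 399 ± 74 CPM in cKO and 1052 ± 43 CPM in control, and Car8 at 6221 ± 489 CPM in cKO and 12479 ± 1956 CPM in control. Rgs8 had 3692 ± 431 CPM in cKO and 7408 ± 979 CPM in control. Granule cell markers summed to 4089, 6654 and 5711 CPM in cKO and 4789 to 6675 CPM in control, and of 16 genes edgeR called 0 and DESeq2 called 1, as lower (1 lower and 0 higher at an unadjusted p under 0.05). Among them Cbln3 had a log2 fold change of -0.09 (SE 0.22) and Etv1 one of -0.27 (SE 0.08). Oligodendrocyte markers summed to 2530, 3648 and 3195 CPM in cKO and 3179 to 4715 CPM in control, and 1 of 18, the transferrin gene Trf, fell (log2 fold change -0.52, SE 0.11), a call that 1 of the 6 fits with 1 library left out kept. Of these 18, DESeq2 called 2 lower and 0 higher, and 4 were lower and 0 higher at an unadjusted p under 0.05. Of 20 microglial markers 11 rose and 0 fell, 6 rose without cKO replicate 1, and C1qc, Tyrobp, Cd68 and Fcer1g had log2 fold changes of 1.36, 2.97, 1.89 and 1.34. Of 14 interneuron markers, with Kit and Tfap2b at log2 fold changes of 0.04 and -0.15, and of 16 endothelial and mural markers, with Slc2a1 and Vtn at -0.16 and -0.13, edgeR and DESeq2 each called 0 (1 interneuron marker lower and 0 endothelial markers at an unadjusted p under 0.05). No gene of these lists was at 0 in all 6 libraries. The library of cKO replicate 1 was the lowest library for 14 of 16 granule cell and 14 of 18 oligodendrocyte markers, and the part of these cell types in the values of the 10 genes was not tested.

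Splice junctions inside the 10 genes gave no call. Reads were found over 265 junctions, 122 of them annotated, with 855079 reads in all. Of 78 tested within clusters that share a splice site, 0 were called (edgeR adjusted p under 0.05 and a shift in share by 5 percentage points or more), whereas 0.751% of all 112047 junctions tested were called. At an unadjusted p under 0.05 there were 5, and the smallest adjusted p was 0.140, in Glul. The share of all tested junctions at that unadjusted level was not computed, so the 5 are not read as an excess. Annotated junctions took between 96.5% of these reads, in Timp4, and 99.986%, in Gdf10. The 18 junctions with the largest share changes among well-read ones, at most 2 per gene, changed by -10.3 to 11.6 percentage points, with edgeR adjusted p from 0.619 to 1.00. In the fit to spliced reads per gene, 0 of the 10 genes were called, against 5.72% of all 14710 genes tested, 3 had an unadjusted p under 0.05, against 19.2% of all genes in that fit, and 9 a fold change below 0, against 48.7%. In 3 of them, Slc1a3, Slc4a4 and Hopx, every cKO library lay below every control library, against 12.1% of all genes in that fit.

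**Figure D4:**
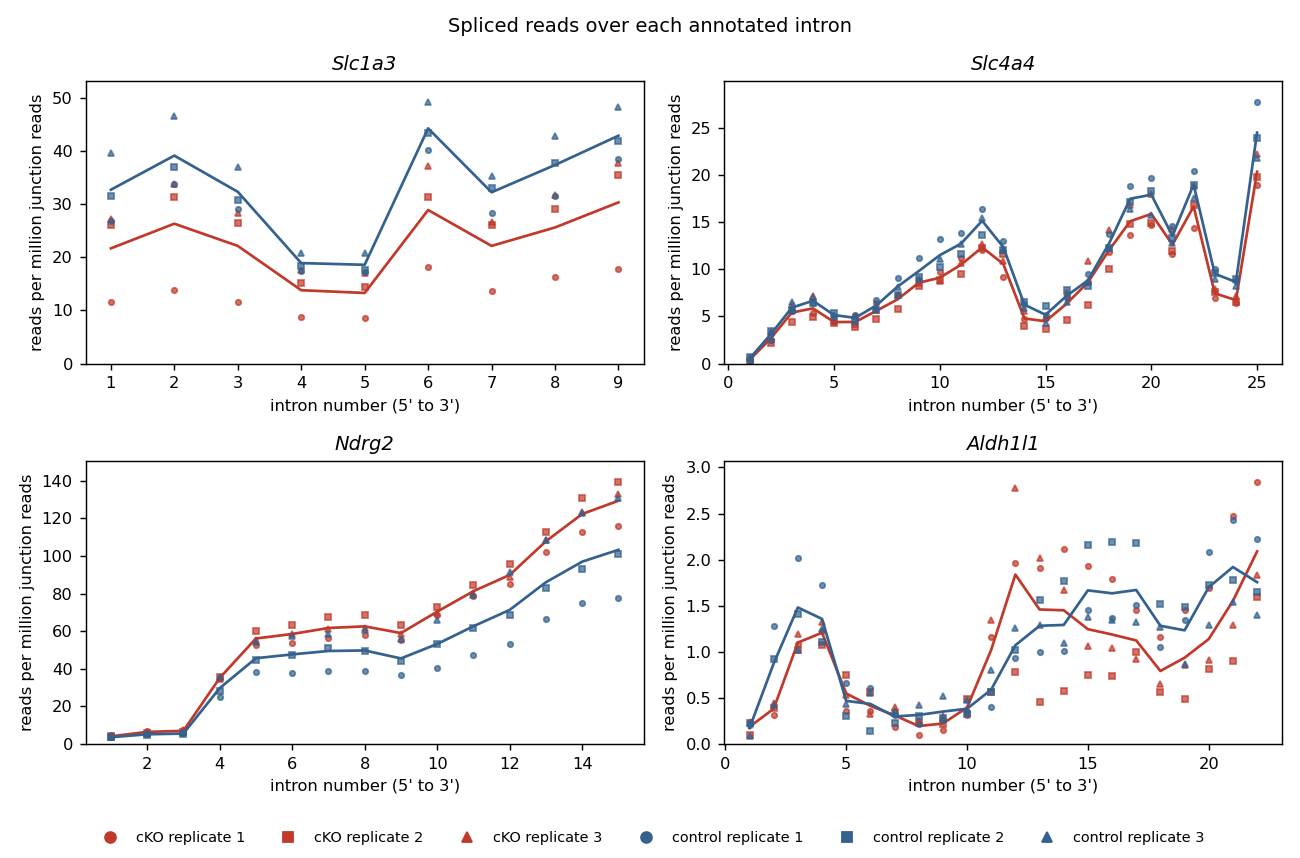
Spliced reads over each annotated intron, as CPM of the library's junction reads without TMM scaling (vertical axis, from 0), against intron number from 5′ to 3′, in Slc1a3, Slc4a4, Ndrg2 and Aldh1l1; points are libraries and lines are means of 3. The cKO mean lies below the control mean in all 9 introns of Slc1a3 and all 25 of Slc4a4, and in none of the 15 of Ndrg2.

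Annotated exons of the 10 genes that are skipped in part were measured as the share of junction reads that include them. In rat brain, a form of NBCe1 that lacks an exon of 97 bp near the 3′ end of the coding sequence is known as NBCe1-C and ends in other residues. In mouse that exon is the 24th of 25 in the GENCODE transcript Slc4a4-202, at chr5:89232764-89232860 on the plus strand of GRCm38, and its length is not a multiple of 3. It is shown with the exon in capitals and the 10 adjoining bases of each neighbouring exon in lower case.
Slc4a4 exon of 97 bp: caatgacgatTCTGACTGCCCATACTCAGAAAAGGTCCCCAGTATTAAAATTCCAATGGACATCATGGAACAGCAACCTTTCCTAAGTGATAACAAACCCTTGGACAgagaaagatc
Its inclusion was 39.6%, 38.3% and 39.99% in the cKO libraries, against 40.9%, 44.7% and 44.9% in the control libraries. Every cKO library lay below every control library by a small margin, on 516 to 722.5 mean inclusion reads per library, and the junctions did not pass the test (edgeR adjusted p = 1.00 for each of the 3). The mean share with the exon was 39.3 ± 0.86% in cKO and 43.5 ± 2.3% in control, so the form without it was the more frequent in every library.

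Ndrg2 has a coding exon of 42 bp, a multiple of 3, whose use distinguishes its long and short proteins. It is exon 3 of 16 in the GENCODE transcript Ndrg2-201, at chr14:51911086-51911127 on the minus strand, and is printed the same way as a contrast in which the reading frame is kept.
Ndrg2 exon of 42 bp: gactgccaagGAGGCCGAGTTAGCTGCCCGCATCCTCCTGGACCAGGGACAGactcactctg
Inclusion was 38.2%, 33.5% and 36.6% in the cKO libraries and 39.6%, 34.3% and 31.3% in the control libraries, with groups that overlapped (edgeR adjusted p = 1.00). An exon of 149 bp in Slc1a2 (chr2:102686121-102686269) was included at 4.76 ± 1.3% in cKO and 3.63 ± 1.2% in control, again with overlap. An exon of 96 bp in Slc4a4 that is not in the annotation (chr5:89057949-89058044) was included at 8.99%, 8.71% and 7.33% in cKO, against 22.97%, 19.4% and 11.5% in control. The groups did not overlap, but this share rests on 27.0 to 111.5 mean inclusion reads per library, and its junctions did not pass the test (edgeR adjusted p = 0.344 and 0.619). The upstream first exon of Aqp4 supplied 38.8 ± 2.3% of reads into its second exon in cKO and 44.9 ± 6.9% in control, and the groups overlapped. Of the first exons of Ndrg2, the middle one supplied 51.6 ± 5.9% of such reads in cKO and 54.0 ± 4.4% in control, and the most upstream one 44.2 ± 4.2% in cKO and 42.9 ± 3.6% in control, each with overlap.

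**Figure D5:**
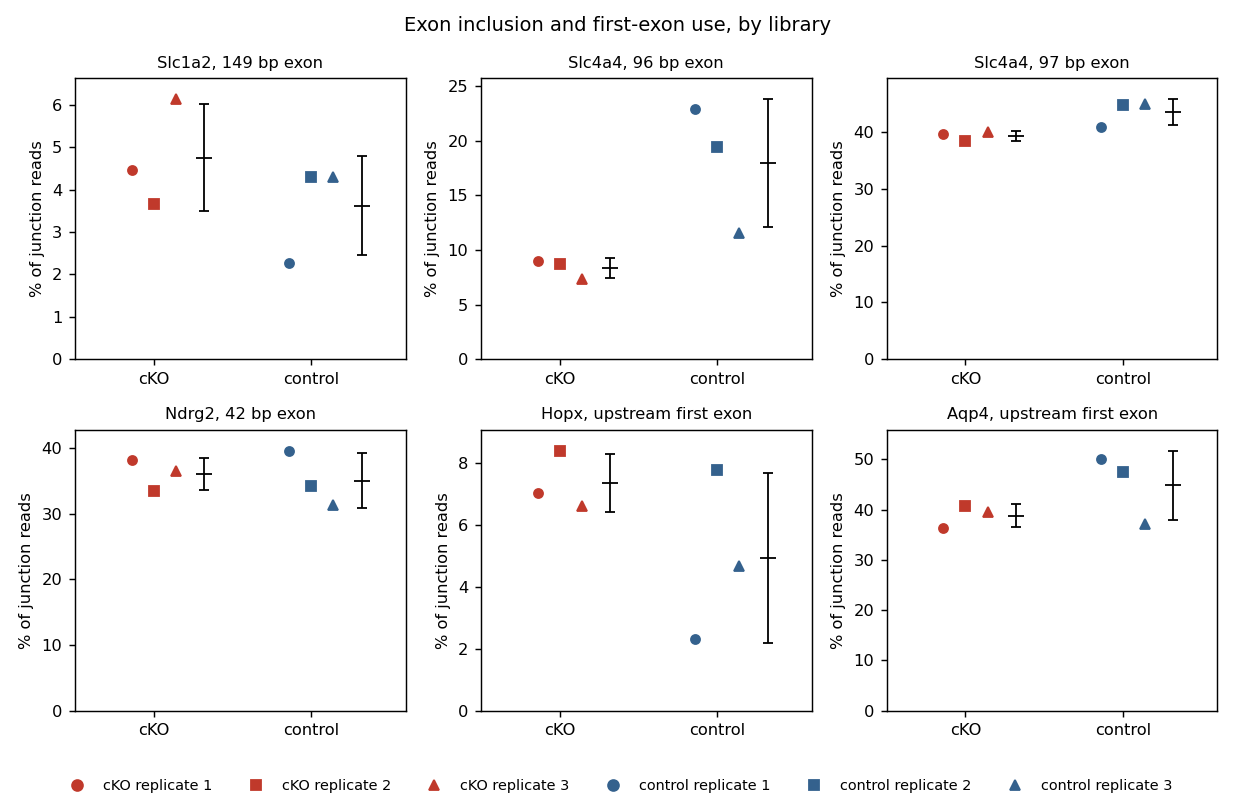
Share of junction reads, in % (vertical axis, from 0), that include 4 exons or come from the upstream first exon of Hopx and Aqp4, with cKO left of control; points are libraries and bars are the mean ± SD of 3. For the 96 bp and the 97 bp exon of Slc4a4 the cKO libraries lie below the control libraries, while the other panels overlap.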

How the data were processed

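Ribosome-bound RNA from 6 cerebella was sequenced, and the authors deposited 1 table of raw gene counts, with no normalization, and a list of splice junctions per library with the count of spanning reads, made by TopHat per the file headers. Per the labels' protocols, cDNA was amplified with poly(A) and random priming, so reads are not independent molecules. The build mm10 and the tools HTSeq 0.6.0 and TopHat2 2.1.0 are named in the submitters' processing notes. The counting annotation, its strand setting and its rule for multiply aligned reads were not given in the sources used here. Genes with an overlapping or antisense partner (Slc1a2, Hopx, Aldh1l1, Aqp4, Glul and Timp4) are uncertain to that extent.

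The gene test was edgeR's quasi-likelihood test of cKO against control (version 4.0.16, R 4.3.3) with filterByExpr, TMM scaling and no covariate, with Benjamini-Hochberg adjustment over all 16067 genes and a threshold of 0.05. SE came from the fold change and its F statistic. Junctions with at least 10 reads over 6 libraries and reads in at least 2 were tested within clusters by diffSpliceDGE, and a call also needed a share change of 5 percentage points. RPKM used union exon length in GENCODE M21, and promoter windows came from RefSeq. Exon inclusion is the mean of both inclusion junctions over that mean plus the skipping reads. On simulated counts the gene test recovered 40.4% of genes changed 1.5-fold and 63.6% of those changed 2-fold, and 4.78% of its calls were false. A gene that was not called may thus still differ. The simulation took its spread from a trend over expression level and held no library that stood apart as cKO replicate 1 did. Its smallest change, 1.5-fold, was larger than that of Slc4a4 or Hopx, so these rates need not hold for them. Alternatives were other scalings and filters, DESeq2 1.42.0, limma-voom (limma 3.58.1), a replicate block, each library left out, spliced reads, other junction thresholds and the longest transcript.

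The 10 genes, the other lists and the tests were chosen with earlier results of these data known. Beyond the 10 genes and Rbm17, up to 4 called genes with the smallest p were named from each list, or, with 0 called, the 2 most abundant. A gene that this rule takes is not reported here. From the junctions of each of the 10 genes, the 2 with the largest share change among those that had 50 reads or more in each library of 1 group were taken. Skipped exons, first exons and other genes set beside them for scale were chosen after their values were seen. Libraries are labelled as separate animals, and p-values measure the spread between them.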

Additional observations from a re-analysis of the deposited data

How the results depend on the processing

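Over 15 alternatives for each of the 10 genes, 128 of 150 fold changes kept their direction and their side of the threshold, 16 lost a call, 4 gained one and 2 changed sign. The 16 lost calls were those of Slc4a4 and Hopx, the only genes with a call to lose. Each lost it in 8 of its 15 alternatives. Both changes of sign were in Aqp4, at 0.029 without cKO replicate 1 and 0.047 without control replicate 3, and its log2 fold change ran from -0.20 to 0.047 with each library left out. The number of the 10 genes that fell, 2, became 0 with upper quartile scaling, 1 with no count filter, 0 from reads over annotated junctions, and 0 to 1 with each library left out. The number of all genes called, 1265, became 2042 with DESeq2, 842 from annotated junction reads, and 530 to 1037 with each library left out. The number of all junctions called, 842, became 436 with a share change of 10 points and 516 to 697 with each library left out. Of the 10 genes 0 rose and 0 of their junctions were called under every alternative run. With the longest transcript as length, the mean RPKM of 6 libraries was 105 in place of 54.5 for Slc1a3, 127 in place of 107 for Glul, 30.1 in place of 22.1 for Slc4a4, 94.0 in place of 78.2 for Hopx, 50.7 in place of 41.1 for Aqp4 and 257 in place of 159 for Ndrg2, since these genes have exons that the longest transcript lacks. With that length Slc1a3 stood above Hopx in control. The causes of the other changes were not tested.

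With the replicate number as a block, 5 of the 10 genes fell (Slc4a4, Hopx, Slc1a2, Slc1a3 and Gdf10), and 0 rose. In that fit 1734 of the 16067 tested genes were called in either direction. The share of all genes that fell in it was not computed, so the 5 are not read as an excess. The deviations of libraries with the same number correlated at 0.04, -0.06 and 0.02, so the numbers were not taken to pair the animals.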
